A study of Mus musculus with 20 samples.

Results

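ASC3-type cells of mouse interscapular brown adipose tissue (iBAT) are stromal cells chosen here by a sum of the genes Gdf10, C7, Clec11a, Epha3, Itgbl1 and Fmo2. They numbered 3614 of the 38611 stromal cells in the 10 Lin- libraries, of 60538 cells kept and 89637 barcodes in all. Lin- libraries hold the cells left after a magnetic bead separation removed cells with immune lineage markers. A cell was kept with under 10% mitochondrial counts, a total under 15000 and at least 500 genes. It was stromal where Pdgfra, Col1a1 and Dcn summed to at least 5 and Pecam1, Cdh5 and Ptprc to under 1. It was ASC3-type where the 6 genes above summed to at least 3, while Pi16, Dpp4, Cd55, Dact2, Sema3c and Krtdap summed to under 2, Lrrc15 was under 0.5 and 8 genes of dividing cells (Top2a, Birc5, Mki67, Cenpf, Cdk1, Ube2c, Pclaf and Tk1) summed to under 4. Values of these genes that follow from the rule are given as descriptions, with no test. For comparison, 12250 ASC2-type cells had a Pi16 to Krtdap sum of at least 2 and an ASC3 sum under 3, and 14449 ASC1-type cells had both sums under 1. No ASC1 marker was required of ASC1-type cells, and cells with adipocyte genes were not left out of them.

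The C57 mice were C57BL/6J males in 3 groups of 2 libraries each. RT mice lived at 24 °C, as the labels give it, COLD mice at 6 °C over 4 days, and CL mice at 24 °C with a 4-day infusion of 0.75 nmol per hour of CL316,243, a selective agonist of the beta-3 adrenergic receptor. The Adrb1 line consisted of Adrb1 fl/fl females with or without Pdgfra-CreER (the labels' name), a Cre recombinase active after tamoxifen in cells that express Pdgfra. WT mice were Pdgfra-CreER -/- and KO mice Pdgfra-CreER +/-, and both were given tamoxifen by gavage. Each genotype gave 1 library at RT and 1 from mice held at 6 °C over 4 days. The Chromium kit was version 3 for the RT libraries of this line and version 2 for the other 8, so within the line kit and temperature cannot be told apart. Mice were 8 to 14 weeks old, and each library pooled 3 to 4 of them, so that a library is a pool and not an animal.

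Adipose stromal cells are fibroblast-like cells that lie among adipocytes and around vessels, lay down matrix and include the progenitors of new adipocytes. Gdf10 is a secreted ligand of the TGF-beta superfamily, C7 a subunit of the complement membrane attack complex, Clec11a a secreted growth factor of the lectin family and Epha3 an ephrin receptor. Type I interferon acts through the receptor IFNAR and a complex of transcription factors with IRF9, which binds interferon-stimulated response elements in the promoters of antiviral genes. Cold acts on brown fat through sympathetic noradrenaline, and beta-3 receptors are found on adipocytes.

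The members per library numbered 369 and 273 at RT, 253 and 509 in COLD and 86 and 633 in CL. In the Adrb1 line they numbered 476 in WT at RT, 204 in KO at RT, 470 in WT COLD and 341 in KO COLD. Their median depth was 1448.5 to 4207 counts, and the counts summed per library reached from 141652 in CL replicate 1 to 2173800 in CL replicate 2. In RT replicate 2 only 25.4% of barcodes were kept. Any pair of libraries shared at most 2 member barcodes. Adrb1 itself was too low in members to check the genotype labels, with 0 to 4 counts per library. In ASC1-type cells it stood at 5.52 and 4.93 CPM in the WT libraries and at 1.45 and 0.497 CPM in the KO libraries (CPM, counts scaled to 1e6 of the summed counts of those cells).

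The rule genes were not evenly present among members. Gdf10 was detected in 85.9% of members, Clec11a in 77.5%, Fmo2 in 58.9%, Itgbl1 in 46.7%, C7 in 33.4% and Epha3 in 24.4%. Gdf10 was found in 78.6% to 90.7% of the members of each library and averaged 1129 CPM, against 16.7 CPM in ASC1-type and 37.5 CPM in ASC2-type cells. C7 varied far more: it reached 434 and 543 CPM at RT, 196 and 108 CPM in COLD, 105 and 154 CPM in CL, 400.4 and 314 CPM in WT and KO at RT, and 44.2 and 11.9 CPM in WT and KO after cold. Every cold or CL library was below every RT library. Cells with C7 made up 61.0% of members in RT replicate 1 and 4.99% in KO COLD. At the threshold, 672 cells that met every other condition lay just inside it (sum of 3 to 4) and 976 just outside (2 to 3). Mgp, which the rule did not use, averaged 3367 CPM just inside, 2001 CPM just outside and 4111 CPM over all members. A further 1465 cells reached a sum of 3 but were left out for a Pi16 to Krtdap sum of at least 2. They numbered 13 (CL replicate 1) to 180 (CL replicate 2) per C57 library. In the Adrb1 line they numbered 373 and 196 in WT and KO at RT and 250 and 189 after cold.

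Genes outside the rule described the same cells. The 23 genes described here, of the 25 that stood highest above ASC1-type and ASC2-type cells by their lowest library, included secreted matrix and mineral regulators, the complement gene C2 and modulators of growth factors. These levels belong to the cells that were sorted into types and are a description. The complement protease gene C2 was at 345 ± 131 CPM (SD, n = 10) in ASC3-type cells, 76.3 CPM in ASC1-type and 38.0 CPM in ASC2-type cells. Its lowest member library, at 167 CPM, lay above the highest library of either other type, at 115 CPM. Counts of C2 were found in 57.9% of members, 23.9% of ASC1-type and 10.3% of ASC2-type cells, whose median depths were 1563 to 6221 and 1659 to 4438 counts.

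Mgp, an inhibitor of calcification that binds BMPs, reached 4111 ± 2473 CPM in members, against 449 and 111 CPM in ASC1-type and ASC2-type cells. Within the members it varied between 1520.0 and 7895 CPM, with both RT libraries of the Adrb1 line, made with the newer kit, at the top. Inmt, an indolethylamine N-methyltransferase, was at 1477 ± 972 CPM against 168 and 121 CPM. Tgfbi, an adhesion protein induced by TGF-beta, was at 685 ± 463 CPM against 139 and 101 CPM. Cst3, an inhibitor of cysteine proteases, was at 7058 ± 1741 CPM and detected in 95.5% of members, against 1497 and 622 CPM.

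Among the signalling modulators were Chrdl1, a BMP antagonist (328 ± 156 CPM against 17.1 and 58.6 CPM), Gas6, the ligand of the TAM receptors (799 ± 258 CPM against 159 and 64.7 CPM), Dkk3 (85.4 ± 46.7 CPM against 6.99 and 10.8 CPM) and Nrp1, a co-receptor of VEGF and semaphorins (327 ± 115 CPM against 88.7 and 61.1 CPM). The transcription factors were Meox2 (259 ± 99.6 CPM against 44.2 and 39.4 CPM), Nr2f2 (211 ± 99.8 CPM against 42.4 and 18.4 CPM) and Klf5 (64.7 ± 24.5 CPM against 6.93 and 2.91 CPM). The remaining genes were Arhgdib, Cpe, Abcc9, Tspan11, Spock2, Mfap4, Cdh13, Pdgfrl, Cd9, Vit and Cdc42ep3. Mfap4 and Tspan11 were not higher just inside the threshold than just outside it. Cells outside the stromal gate averaged more than members for Cdh13 (118 against 78.6 CPM) and Cdc42ep3 (115 against 54.7 CPM) and about as much for Arhgdib (138 against 141 CPM). Abcc9 is also a gene of pericytes. The 10 mural markers, Abcc9 among them, summed to 192 to 777 CPM in members and 1693 to 9665 CPM in the cells outside the stromal gate.

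**Figure D1:**
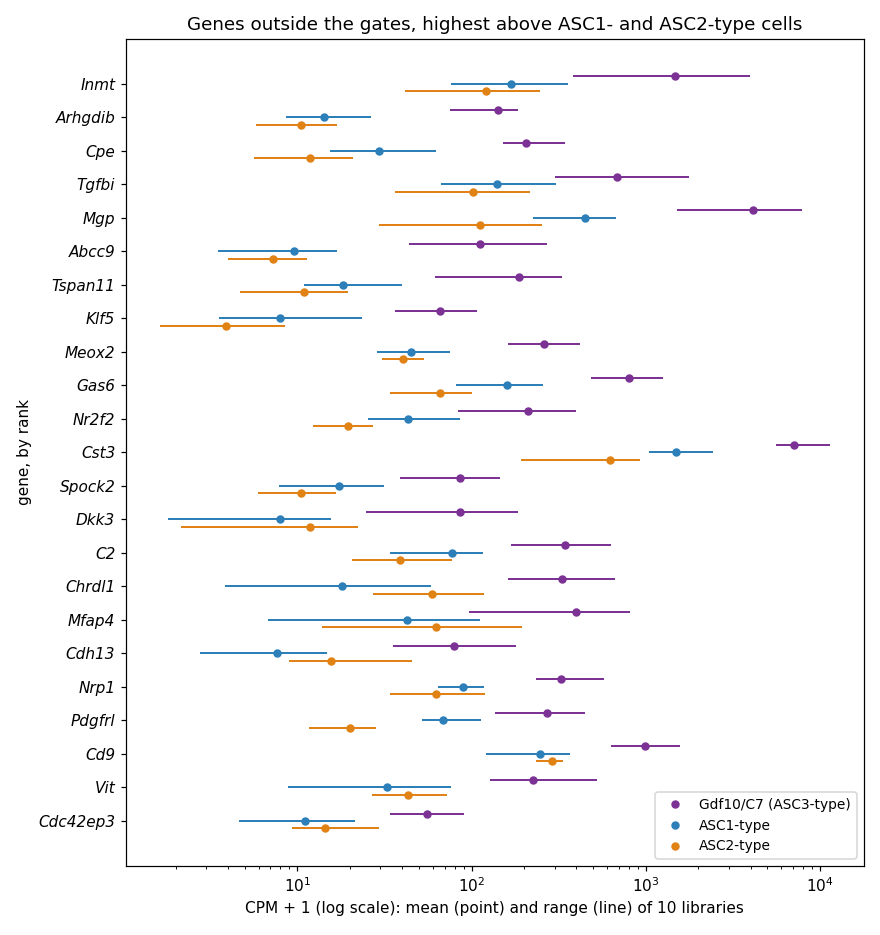
Level of 23 genes outside the rule that stood highest in Gdf10/C7 (ASC3-type) cells above ASC1-type and ASC2-type cells, as CPM + 1 on a log scale. Points are means and lines the range of 10 libraries in ASC3-type (purple), ASC1-type (blue) and ASC2-type (orange) cells; the purple range of Mgp (1520.0 to 7895 CPM) lies wholly to the right of the others.

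Members also carried RNA of general progenitor and ASC1 genes. The ASC1 marker Cxcl14, a chemokine, was at 735 ± 435 CPM in members, 1643 CPM in ASC1-type and 108 CPM in ASC2-type cells. Cd34, a surface marker of stromal progenitors, was at 537 CPM in members, 347 CPM in ASC1-type and 1254 CPM in ASC2-type cells. On these means over 10 libraries both lay between the other types. So did the ASC1 marker Bmper, at 86.6 CPM against 265 and 43.7 CPM in ASC1-type and ASC2-type cells. Other such genes did not. The ASC1 marker Col5a3 (197 CPM against 788 and 285 CPM) and the progenitor marker Thy1 (175 CPM against 270 and 430 CPM) were lowest in members. The progenitor marker Cd44 was highest in them (89.2 CPM against 62.6 and 57.2 CPM). In the C57 COLD libraries, however, Cxcl14 averaged 1049 CPM in members, above ASC1-type (928 CPM) and ASC2-type cells (130 CPM). Fbln1, a matrix glycoprotein, was at 805 ± 293 CPM in members, above ASC1-type (111 CPM) and ASC2-type cells (304 CPM).

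Markers of other cells were low in most libraries. Endothelial markers summed to 99.2 to 288 CPM in members, against 2155 to 6973 CPM outside the stromal gate. Immune markers summed to at most 67.8 CPM outside COLD replicate 1 (861 CPM) and CL replicate 1 (872 CPM). Cd74, the class II invariant chain, was at 25.3 and 0 CPM at RT, 378 and 0 CPM in COLD and 330.5 and 0.920 CPM in CL. It was not called, but with a replicate block its adjusted p was 0.00141 after cold and 0.0195 in CL. Thinned to 1000 counts, 1 member of COLD replicate 1 held 75 immune counts and 1 of CL replicate 1 held 31, and no other member of these libraries reached 5. Erythroid markers summed to 803 CPM in RT replicate 1 and 1023 CPM in WT COLD, where 1 member each held 249 and 631 erythroid counts per 1000, and to at most 11.0 CPM elsewhere. Adipocyte markers summed to 1982 and 866 CPM at RT, 3119 and 3344 CPM in COLD and 1484 and 1039 CPM in CL. Of 12 adipocyte markers tested after cold, 10 were above 0 (median log2 fold change 2.26) and 0 were called. Fabp4 and Car3, which are among them, served the authors as genes that stromal cells lack when cell-free RNA was subtracted. The part of adipocyte RNA in the results was not tested.

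The first question was how large the population was under each condition. With every cell thinned to 1000 counts, ASC3-type cells made up 5.33% (95% exact binomial interval 4.59 to 6.16) and 9.64% (8.38 to 11.0) of stromal cells at RT. The COLD libraries gave 3.24% (2.75 to 3.78) and 6.05% (5.33 to 6.83), and the CL libraries 1.47% (1.12 to 1.88) and 7.25% (6.53 to 8.01). The groups overlapped, and the replicates of each group lay further apart than their intervals. The difference of means was -2.85 percentage points for cold and -3.13 for CL, within the spread between libraries. Libraries of the same number come from 1 replicate experiment, and within these pairs the thinned share differed from RT by -2.10 and -3.60 points in COLD and by -3.87 and -2.40 points in CL, lower in each. With 2 pairs an exact permutation test cannot give a two-sided p below 0.5. In the Adrb1 line the shares were 10.3% and 10.03% in WT and KO at RT and 7.21% and 7.45% in WT and KO after cold. The intervals cover counting error only. Counted on cells at full depth, ASC3-type cells took 10.8% and 11.7% of stromal cells at RT, 4.38% and 11.1% in COLD, 1.77% and 12.2% in CL, 13.0% and 13.5% at RT in the Adrb1 line and 10.4% and 12.2% after cold. Within the pairs these differed from RT by -6.38 and -0.52 points in COLD and by -8.99 and 0.57 points in CL, so that the second CL library was not below its RT partner. Thinning left out 0 to 40 members and 19 to 296 stromal cells per library as too shallow. The rule counts C7, which was lower in the cold and CL libraries, and its part in these shares was not tested. The part of the cells left out for their Pi16 to Krtdap sum was not tested either.

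The second question was which genes changed in these cells after cold. Counts were summed over members per library and fitted with edgeR's quasi-likelihood test over the 6 C57 libraries together, so the groups share 1 estimate of the spread. In bulk sums of this kind, fewer cells that express a gene and less RNA per cell cannot be told apart. Each library is 1 pool of mice, and adjusted p-values (Benjamini-Hochberg, threshold 0.05) measure the spread between them. Outside the rule genes, 72 of 9456 genes were called (0.761% of those tested), 58 higher (0.613%) and 14 lower (0.148%) in COLD. Interferon-response genes rose together: 22 of the 32 on the list were called, all higher, and 31 of 32 had a fitted log2 fold change above 0, against 51.1% of all genes. The median of the list was 1.91, against 0.0123 over all genes. Gene lists were chosen with earlier results of these data known, so these shares of the list are a description. None of the 72 genes had overlapping RT and COLD libraries, which was so for 28.0% of all genes tested.

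Among the interferon genes, Ifit3, an inhibitor of viral translation, was at 22.6 and 33.1 CPM at RT, 465 and 438 CPM in COLD and 134 and 91.1 CPM in CL. Its log2 fold change after cold was 4.07 (SE 0.37, adjusted p 0.000277). Irf7, the factor that amplifies interferon production, was at 18.6 and 17.8 CPM at RT, 345 and 292 CPM in COLD and 70.3 and 43.2 CPM in CL (4.03, SE 0.34, adjusted p 0.000213). Both cold libraries of either gene stood above every RT and CL library. Isg15, a ubiquitin-like modifier, was at 91.1 and 43.3 CPM at RT against 635 and 633 CPM in COLD (3.09, SE 0.52, adjusted p 0.0132). Bst2, which tethers budding virus to the cell surface, was at 101 and 68.8 CPM at RT against 754 and 1006 CPM in COLD (3.30, SE 0.56, adjusted p 0.0135). Rsad2, the radical SAM enzyme viperin, had 3 counts over both RT libraries and 248 in COLD, a ratio of pooled levels of 63.3 (95% counting interval 21.4 to 309). Ifi44 had no count at RT and 27.7 and 45.5 CPM in COLD, at least 26.3-fold higher against a floor of 3 counts over the RT group. Genes off the list that were likewise at 0 in both RT libraries were the antiviral Oas2 (at least 14.5-fold higher) and Mx1 (at least 10.5-fold higher) and the ubiquitin-like Ubd (at least 19.4-fold higher). With a replicate block the adjusted p of Mx1 was 0.0764.

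Further members of the list rose by less. Ifih1, a sensor of double-stranded RNA, had a log2 fold change of 1.67, Gbp3 2.49, Gbp7 1.32, Zbp1 2.08, Usp18, which dampens receptor signalling, 1.77, and Parp14 1.37. Cxcl10, a chemokine for T cells, was at 53.2 and 30.6 CPM at RT, 179 and 248 CPM in COLD and 42.2 and 35.0 CPM in CL (2.18, SE 0.35, adjusted p 0.0112 after cold). Of the 13 class I antigen presentation genes tested, all 13 had a log2 fold change above 0 (median 1.02), but 1 was called, H2-Q7 (2.80, SE 0.48, adjusted p 0.0143). The H2-Q genes are near-identical copies, so reads may be split among them. Ifit3, Ifit3b, Irf7, Ifit1, Rtp4 and Cthrc1 were called under every alternative tried, including each library left out in turn.

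The response was spread over the members. Counted as interferon-list counts per 1000 in each cell, the median member held 1 and 1 at RT, 3 and 5 in COLD and 1 and 1 in CL. Members with at least 5 such counts made up 4.67% and 7.30% at RT, 35.8% and 55.2% in COLD and 20% and 9.71% in CL. In the Adrb1 line they made up 2.95% and 5.39% in WT and KO at RT, and 19.0% and 41.4% after cold. ASC1-type cells of the C57 COLD libraries held at least 5 in 60.4% and 68.2% of cells, against 9.32% and 13.4% at RT. Cells are not replicates, so these shares have no test.

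**Figure D2:**
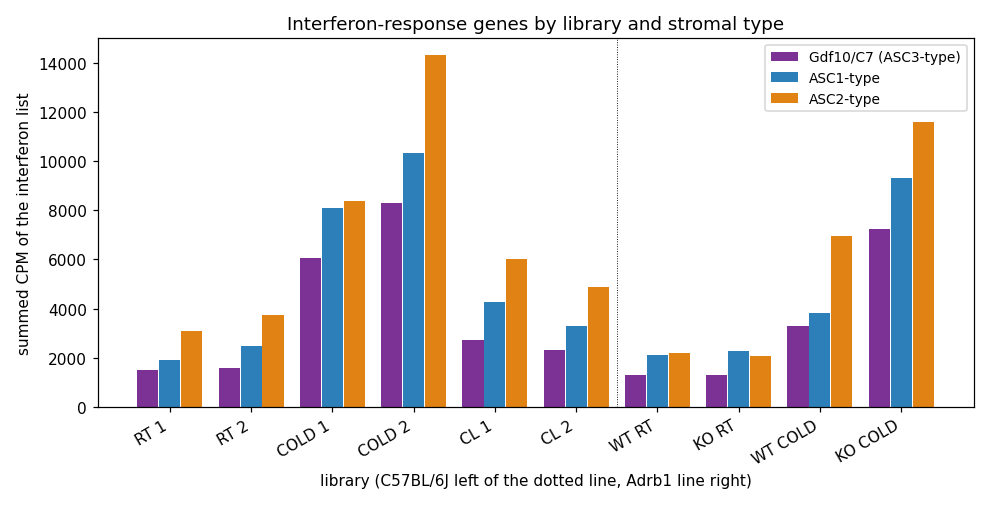
Summed CPM of the 32 interferon-response genes in each library, for ASC3-type (purple), ASC1-type (blue) and ASC2-type (orange) cells. In ASC3-type cells the sums were 1504 and 1595 CPM at RT, 6048 and 8307 CPM in COLD and 2714 and 2324 CPM in CL, and the ASC2-type bars were the tallest in every C57 library.

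Promoter sequence was read beside these genes, from RefSeq for GRCm38.p6. Of the 58 genes called higher after cold, 45 had a promoter listed there, and 18 of them (40.0%) held the interferon-stimulated response element (ISRE), which is GAAA, any 2 bases and GAAA, on either strand within 250 bases before to 50 after the start. Among all symbols listed 3.99% held it. Of the 14 genes called lower, 9 matched and 0 held it. The element was in 15 of 25 matched genes of the interferon list (60.0%) and in 7 of 28 matched genes called higher outside the list (25%). The NF-kB element, which is GGGA, any 2 bases and TTCC, was searched too. It was in 1 of the 45 matched genes called higher (2.22%) and in 1.63% of all symbols. The Cxcl10 stretch below holds a match to it, left in lower case. Matches are a description of sequence and not of binding. The 250 bases before the start are shown 5′ to 3′ on the strand of the gene for 5 of the genes described above, with each ISRE match in capitals (TTTC, any 2 bases and TTTC on the other strand), because they differ in number and arrangement of matches. Ifit3 (chr19:34583279-34583528, + strand) held 2 separate matches, Isg15 (chr4:156200819-156201068, - strand) 3 and Bst2 (chr8:71537473-71537722, - strand) 2 that overlap, and Rsad2 (chr12:26456453-26456702, - strand) and Cxcl10 (chr5:92348890-92349139, - strand) 1 each.
Ifit3: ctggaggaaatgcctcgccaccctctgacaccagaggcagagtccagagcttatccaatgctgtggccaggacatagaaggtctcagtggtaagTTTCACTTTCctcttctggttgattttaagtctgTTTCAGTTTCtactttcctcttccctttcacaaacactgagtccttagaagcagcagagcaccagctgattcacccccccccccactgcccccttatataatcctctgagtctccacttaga
Isg15: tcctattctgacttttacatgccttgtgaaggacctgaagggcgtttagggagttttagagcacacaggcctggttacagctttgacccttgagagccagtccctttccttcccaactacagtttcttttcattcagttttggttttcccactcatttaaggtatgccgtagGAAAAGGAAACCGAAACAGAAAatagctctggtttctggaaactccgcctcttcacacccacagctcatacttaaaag
Bst2: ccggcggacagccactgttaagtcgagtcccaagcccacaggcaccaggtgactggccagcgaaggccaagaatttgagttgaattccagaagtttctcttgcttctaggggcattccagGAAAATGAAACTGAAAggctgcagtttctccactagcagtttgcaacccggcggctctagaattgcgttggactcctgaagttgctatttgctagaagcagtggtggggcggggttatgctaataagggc
Rsad2: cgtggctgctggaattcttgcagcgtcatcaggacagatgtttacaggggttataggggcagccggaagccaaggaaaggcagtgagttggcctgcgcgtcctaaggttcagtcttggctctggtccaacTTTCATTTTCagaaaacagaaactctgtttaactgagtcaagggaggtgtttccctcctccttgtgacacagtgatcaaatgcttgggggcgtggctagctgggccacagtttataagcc
Cxcl10: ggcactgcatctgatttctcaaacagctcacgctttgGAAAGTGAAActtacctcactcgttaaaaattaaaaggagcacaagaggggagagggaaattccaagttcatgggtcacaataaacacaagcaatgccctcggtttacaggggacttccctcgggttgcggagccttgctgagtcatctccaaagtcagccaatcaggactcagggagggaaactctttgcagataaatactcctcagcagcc

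Some matrix genes were also called after cold. Of 32 tested matrix and activation genes 4 were called, all higher (median 0.31, against 0.0123 over all genes, of which 0.613% were called higher), namely Tnc, Cthrc1, Adam12 and Postn. Tnc, the matricellular protein tenascin C, had no count at RT, 33.2 and 47.0 CPM in COLD and 0 and 2.30 CPM in CL, at least 27.8-fold higher in COLD than at RT. Cthrc1, a secreted protein of remodelling stroma, was at 9.97 and 12.7 CPM at RT, 109 and 157 CPM in COLD and 295 and 152 CPM in CL (3.58, SE 0.39, adjusted p 0.000557 after cold). Postn, the matrix protein periostin, was at 39.9 and 104 CPM at RT against 341 and 423 CPM in COLD (2.59, SE 0.43, adjusted p 0.0125), and Adam12, a metalloprotease, rose by 3.10. Tnc was thus high in COLD alone, while Cthrc1 was high in CL as well. Saa3, an acute phase protein, was at 2.66 and 0 CPM at RT, 183 and 234 CPM in COLD and 28.1 and 799.8 CPM in CL, where the libraries lay far apart. It was the only acute phase gene called of 13 after cold (adjusted p 0.0413). Its 250 bases before the start (chr7:46715677-46715926, - strand) are shown with matches to the C/EBP element TTNNGCAA in capitals, an element found in 8 of 13 matched acute phase genes (61.5%) and 12.2% of all symbols. Of the 45 matched genes called higher after cold, 10 (22.2%) held the C/EBP element. The Saa3 stretch also holds 1 match to the ISRE, left in lower case, 125 bases before the start.
Saa3: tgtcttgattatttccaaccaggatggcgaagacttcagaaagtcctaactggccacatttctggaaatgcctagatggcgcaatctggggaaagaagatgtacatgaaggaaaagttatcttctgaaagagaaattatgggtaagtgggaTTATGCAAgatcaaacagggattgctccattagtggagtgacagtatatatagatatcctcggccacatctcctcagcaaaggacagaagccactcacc

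Other secreted factors also changed after cold. Il33, an alarmin cytokine, was at 23.9 and 40.8 CPM at RT, 124 and 76.5 CPM in COLD and 84.4 and 63.5 CPM in CL (1.67, SE 0.28, adjusted p 0.0131 after cold). Angptl4, an inhibitor of lipoprotein lipase, rose by 1.88 and Fzd1, a Wnt receptor, by 1.20. Of the genes called lower, Dlk1, a Notch-like inhibitor of adipogenesis, had 49 counts over both RT libraries and 1 in COLD, a ratio of pooled levels of 0.0156 (95% counting interval 0.000388 to 0.0912). Dkk2, a Wnt modulator, fell by 2.38 (SE 0.48), Cpz, a carboxypeptidase with a Wnt-binding domain, fell by 1.83 (SE 0.33), Col6a6, a collagen VI chain, fell by 2.08 (SE 0.43) and Vegfc, a lymphangiogenic factor, fell by 1.25 (SE 0.26), all on the log2 scale. Pi15, a secreted peptidase inhibitor, was at 44.6 and 227 CPM at RT against 9.22 and 17.1 CPM in COLD (-2.81, SE 0.53). Further falls were those of Gstp1 (-2.27), Ighm (-2.22), Atp1b1 (-2.05), Glt8d2 (-1.36) and Avpr1a (-1.33). Ighm is the immunoglobulin mu chain of B cells.

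Gene groups with few or no calls are given as values. All 21 tested sterol synthesis genes had a log2 fold change below 0 after cold (median -1.08), and 0 were called. Their summed level was 966 and 657 CPM at RT, 472 and 471 CPM in COLD and 520.4 and 348 CPM in CL. The Adrb1 line did not show this fall. There the sum was 377 and 440 CPM in WT and KO at RT and 495 and 516 CPM in WT and KO after cold. Of 29 BMP and TGF-beta genes, 3 were above 0 (median -0.37), and of 10 complement genes 1 was (median -0.31), with 0 called in either list. Medians were 0.22 for 18 collagens (1 called, Col6a6), -0.57 for 13 Wnt modulators (Fzd1 and Dkk2 called), -0.00240 for 9 genes of the insulin-like growth factor axis, -0.02 for 14 adipogenic factors, 0.33 for 13 glucocorticoid and metallothionein genes and -0.14 for 20 early genes induced by dissociation, with 0 called in the last 4 lists. Adrenergic receptor genes did not pass the filter on low counts, with 4.17 to 28.0 CPM summed over 9 genes.

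**Figure D3:**
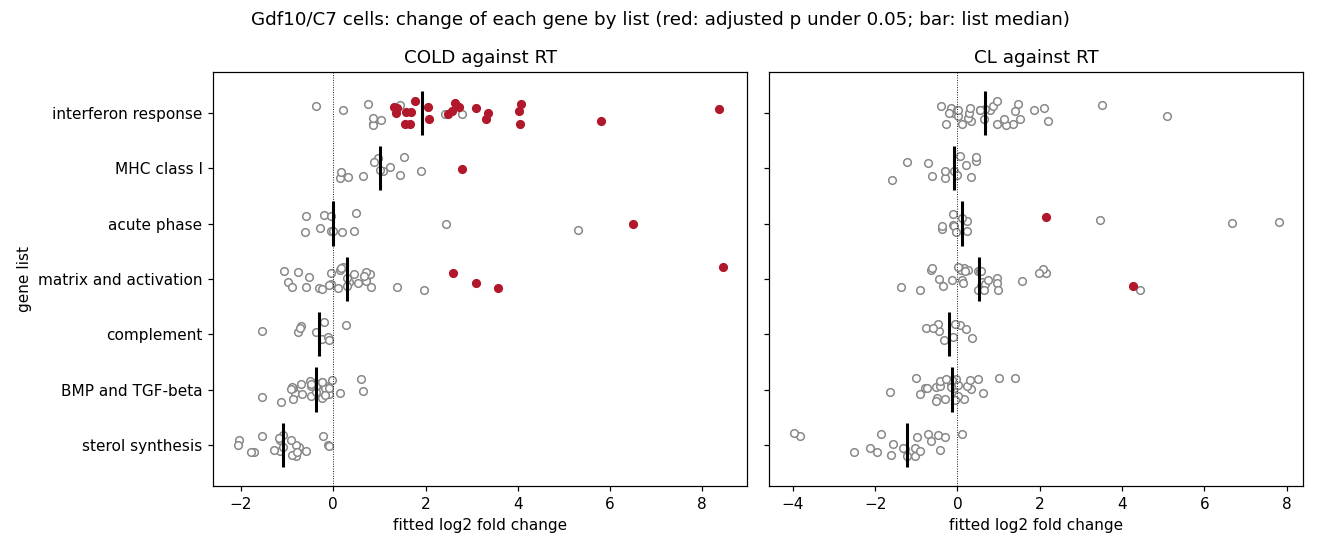
Fitted log2 fold change of each tested gene by list, COLD against RT (left) and CL against RT (right), in ASC3-type cells of C57 mice; red points have an adjusted p under 0.05, open points do not, and black bars are list medians (1.91 after cold and 0.67 in CL for the interferon list). Values of genes without counts at RT (Tnc and Ifi44) depend on the prior count of the fit.

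The cold count varied with the tool and the libraries. DESeq2 called 34 genes, and sums thinned to 1 total per library gave 15 of only 3191 genes tested. Without COLD replicate 2 the count was 19, without RT replicate 1 it was 186 and without RT replicate 2 it was 121. Without the members that held immune or erythroid counts of at least 5, an alternative added after the data were seen, it was 73.

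The third question was what CL infusion did to the same cells. It shares the RT libraries with the cold comparison. Here 4 genes were called, all higher (0.0423% of 9456). An unadjusted p under 0.05 was found for 458 genes (4.84%), near the 5% that no change would give. Cthrc1 rose by 4.25 (SE 0.40, adjusted p 0.000769). Serpina3n, an acute phase protease inhibitor, was at 62.5 and 96.8 CPM at RT, 422 and 246 CPM in CL and 97.8 and 108 CPM in COLD (2.16, SE 0.32, adjusted p 0.0355 in CL). H19, an imprinted non-coding RNA, had 0 and 0 counts at RT and 7 and 56 in CL, at least 17.2-fold higher. Ucp1, the uncoupling protein of brown adipocytes, had 0 and 2 counts at RT and 8 and 64 in CL, a ratio of pooled levels of 29.5 (95% counting interval 7.87 to 248). In members Ucp1 was at 56.3 and 29.4 CPM in CL, and in the cells outside the stromal gate at 14.8 and 29.0 CPM at RT against 679 and 152 CPM in CL. With a replicate block the adjusted p was 0.0613 for H19 and 0.0568 for Ucp1 and Serpina3n, so that Cthrc1 alone of the 4 was called with either fit. CL replicate 1 held only 86 members, and without it 2 genes were called, against 3 without CL replicate 2, 56 without RT replicate 1 and 48 without RT replicate 2.

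Just short of the call threshold were Hp, the haemoglobin-binding acute phase protein (3.47, SE 0.55, adjusted p 0.0540), Saa3 (4 and 0 counts at RT against 4 and 1739 in CL, adjusted p 0.0554, with a fitted value of 7.82 that was 3.45 without CL replicate 2), Cfd, the adipocyte complement factor adipsin (3.74, SE 0.62, adjusted p 0.0554), and Sqle, an enzyme of sterol synthesis, at 49.9 and 25.5 CPM at RT against 0 and 2.76 CPM in CL (-3.83, SE 0.62, adjusted p 0.0554). None of these was called. With a replicate block the adjusted p of Hp was 0.0491. The interferon list had a median of 0.67 with 26 of 32 genes above 0 and 0 called, and the sterol list a median of -1.23 with 1 of 21 above 0 and 0 called. Over all genes 48.1% were above 0. For matrix and activation genes 25 of 32 were above 0 (median 0.52, or 0.495 with the genes at 0 at RT set to their bound).

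COLD and CL were also compared with each other, in the same fit. Of 9456 genes 25 were called (0.264%), 3 higher (0.0317%) and 22 lower (0.233%) in CL than in COLD. Interferon genes made up 9 of the 22, and all 32 of the list had a fitted value below 0 (median -1.44, with 47.2% of all genes above 0). On the log2 scale Irf7 stood at -2.51 (SE 0.32), Cxcl10 at -2.39 (SE 0.39) and Tnc at -4.01 (SE 0.53). Fgf10, a growth factor of mesenchyme, was at 83.0 and 84.2 CPM in COLD, 14.1 and 19.3 CPM in CL and 39.9 and 38.2 CPM at RT (-1.94, SE 0.29, adjusted p 0.0239), so that RT lay between them. Pla1a, a phosphatidylserine phospholipase, was at 160.5 and 158 CPM in COLD and 28.1 and 19.3 CPM in CL (-2.75, SE 0.45, adjusted p 0.0255). Higher in CL were H19, Serpina3n (1.71, SE 0.31, adjusted p 0.0448) and Mest, an imprinted gene, at 70.3 and 68.5 CPM in CL, 22.1 and 21.7 CPM in COLD and 59.2 and 48.4 CPM at RT. With a replicate block the adjusted p was 0.0736 for Serpina3n and 0.0562 for Ifit3. Without CL replicate 2, which leaves the 86 members of CL replicate 1 alone in their group, edgeR called 0 genes and 545 (6.28% of those tested) had an unadjusted p under 0.05, without CL replicate 1 5 were called, without COLD replicate 2 1, and DESeq2 on all 6 libraries called 2.

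**Figure D4:**
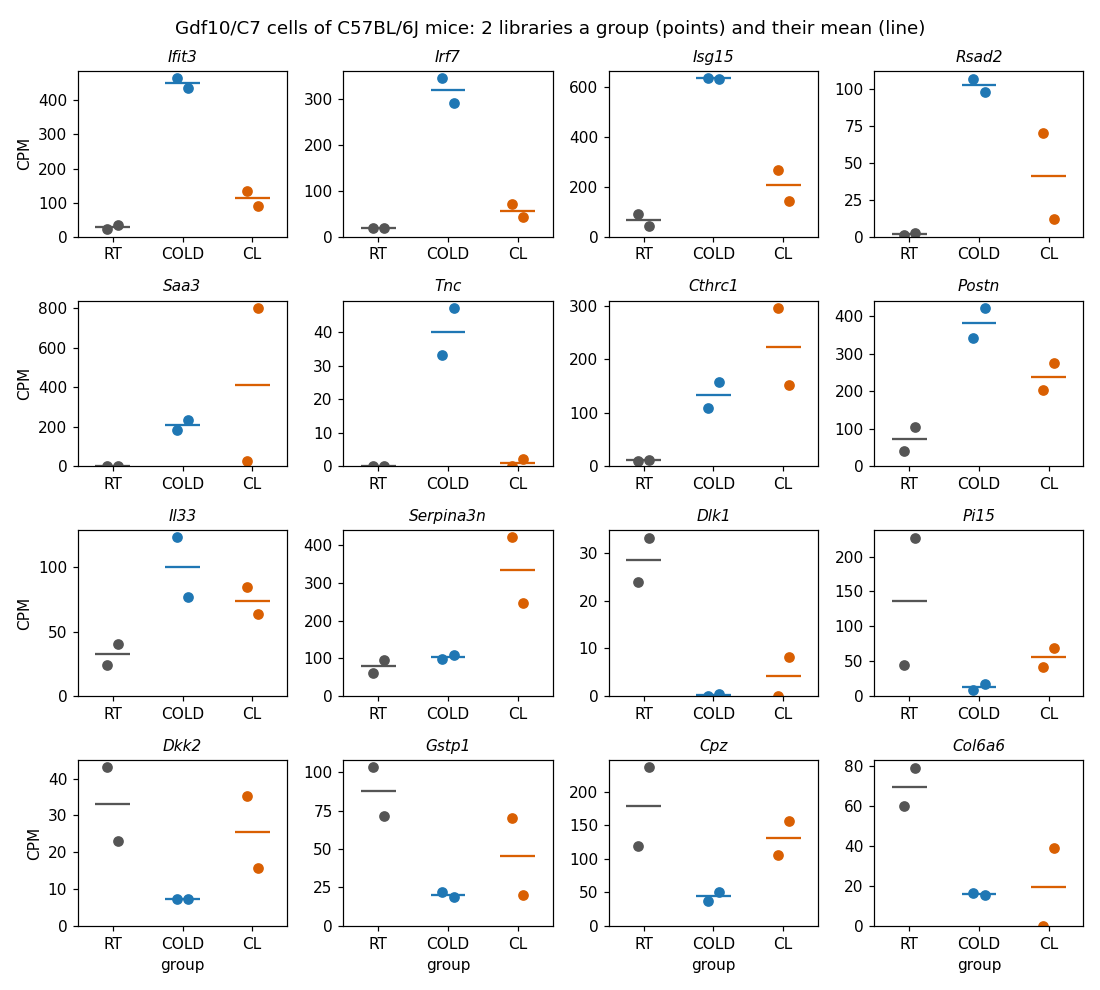
CPM of 16 genes in ASC3-type cells of the C57 libraries: points are the 2 libraries of each group and lines their mean, on axes that start at 0. Tnc is high in COLD alone (33.2 and 47.0 CPM), Cthrc1 in COLD and CL, Serpina3n in CL alone, and Dlk1, Pi15, Dkk2, Gstp1, Cpz and Col6a6 are lower in COLD than at RT.

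The next comparison asked whether cold did the same in ASC3-type cells as in the other stromal types. By itself the cold fit called 1292 of 12475 genes in ASC1-type cells (10.4%) and 45 of 11370 in ASC2-type cells (0.396%). Of the 72 genes called in ASC3-type cells, 63 (87.5%) were also called in ASC1-type cells, 4.88% of the calls there, and all 63 in the same direction. The 9 others were Atp1b1, C1qtnf3, Cpz, Enpp6, Gstp1, Il33, Pi15, Smpd3 and Tpm2. With ASC2-type cells 23 were shared, 31.9% of the ASC3-type and 51.1% of the ASC2-type calls. These cell types come from the same libraries. The difference between responses was therefore tested itself, with a type by treatment term and the library as a block.

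Against ASC1-type cells, the cold response differed for 258 of 11565 genes (2.23%), 163 with a higher (1.41%) and 95 with a lower (0.821%) log2 change in ASC3-type cells. Smoc2, a matricellular calcium-binding protein, was at 3802 and 5312 CPM at RT against 283 and 267 CPM in COLD in ASC1-type cells, and at 1814 and 639.6 CPM and 817 and 466 CPM in ASC3-type cells (difference 3.12, SE 0.51, adjusted p 0.00144). Hsd11b1, which regenerates active glucocorticoid, was at 736 and 970.3 CPM at RT against 133 and 137 CPM in COLD in ASC1-type cells but at 392 and 252 CPM and 323 and 299 CPM in members (difference 2.50, SE 0.31, adjusted p 8.02e-05). In both genes the ASC1-type libraries were far lower in COLD, while the RT and COLD libraries of the members overlapped. Tsc22d3, a glucocorticoid-induced gene, had fitted changes of 1.15 in members and -0.996 in ASC1-type cells (difference 2.14, SE 0.25, adjusted p 4.23e-05). Cxcl14 (difference 2.18, SE 0.40) had fitted changes of 0.02 in members and -1.94 in ASC1-type cells, and Bmp4, a BMP ligand (difference 2.51, SE 0.48), -0.88 and -3.41. The RT libraries of the members lay far apart for Cxcl14, at 963 ± 511 CPM (SD) against 1049 ± 56.1 CPM in COLD. In members of the Adrb1 line it was higher after cold, by 3.41 in WT and 2.72 in KO on the scale log2(CPM + 10).

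Of the sterol genes Msmo1, Sc5d, Nsdhl, Hmgcs1 and Srebf2 had less negative changes in members, with differences of 1.23 (Srebf2) to 1.65 (Msmo1). In ASC1-type cells 20 of 23 sterol genes were called lower after cold (median -1.82), against 5.02% of all genes tested there. Sfrp2, a secreted Wnt modulator, had the reverse pattern (difference -2.64, SE 0.52, adjusted p 0.00714), with members at 1267 and 3275 CPM at RT against 478 and 305 CPM in COLD, and ASC1-type cells at 17.1 and 34.9 CPM and 27.4 and 26.9 CPM. Among the interferon genes Ifit3 had a larger change in members (difference 1.22, SE 0.27, adjusted p 0.0177), and it was the only gene of that list called in this test.

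Against ASC2-type cells 48 of 11516 genes differed (0.417%), 17 higher (0.148%) and 31 lower (0.269%). Postn had fitted changes of 2.59 in members and -0.63 in ASC2-type cells, where it was at 231 and 523 CPM at RT against 235 and 205 CPM in COLD (difference 3.23, SE 0.30, adjusted p 4.39e-08). Il33 was at 228 and 261 CPM at RT against 223 and 119.7 CPM in COLD in ASC2-type cells (difference 2.31, SE 0.26, adjusted p 4.19e-06). The complement genes C4b (-3.37, SE 0.29), C2 (-2.27, SE 0.29), Clu (-2.23, SE 0.35) and Cfb (-1.52, SE 0.29) had lower changes in members. C4b, a component of the classical pathway, was at 72.7 and 58.4 CPM at RT against 425 and 407 CPM in COLD in ASC2-type cells, while members were at 409.6 and 303 CPM and 186 and 255 CPM. Members were thus above ASC2-type cells at RT and below them in COLD. Fbln1 (-1.94, SE 0.28) and Sfrp1 (-1.50, SE 0.22) also had lower and Tgfb2 (1.63, SE 0.23) and Fzd1 (1.36, SE 0.25) higher changes in members. Of the interferon genes Rsad2 was the only one called (2.99, SE 0.69, adjusted p 0.0445).

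**Figure D5:**
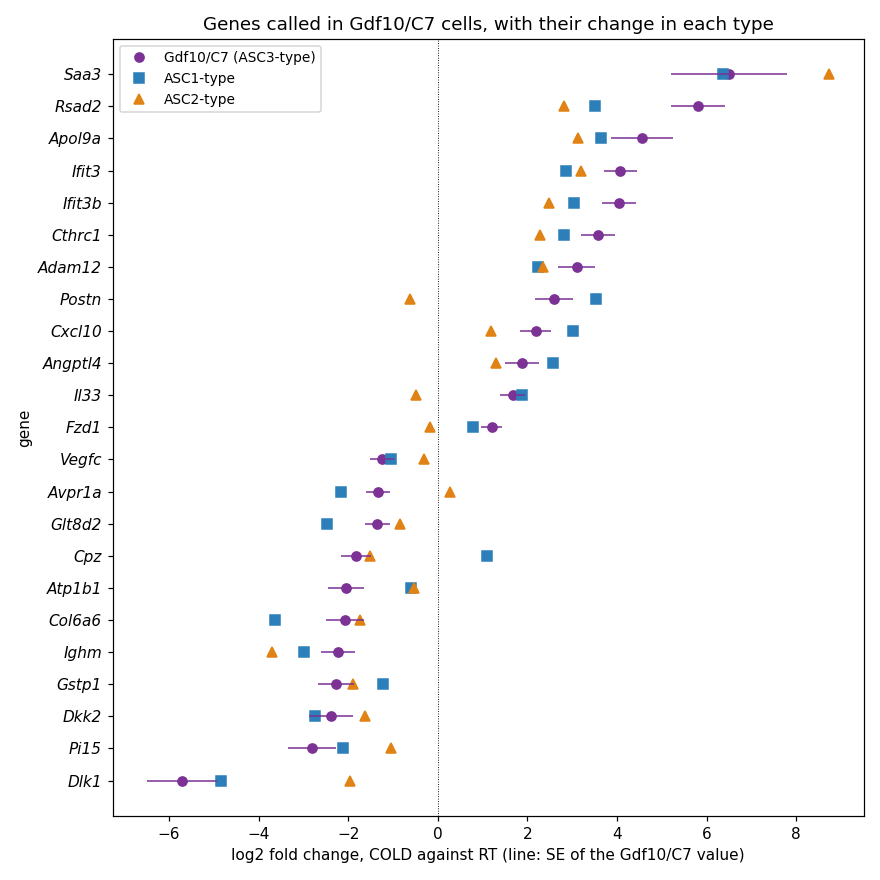
Log2 fold change after cold of genes called in ASC3-type cells (purple circles, line: SE), with the values in ASC1-type (blue squares) and ASC2-type cells (orange triangles); genes without counts at RT are left out. Postn and Il33 lie right of 0 in ASC3-type and ASC1-type cells and left of 0 in ASC2-type cells (-0.63 and -0.49), and Cpz lies left of 0 in ASC3-type cells and at 1.10 in ASC1-type cells.

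The CL response differed for fewer genes, 15 against ASC1-type cells (0.13%; 2 higher, 0.0173%, and 13 lower, 0.112%) and 23 against ASC2-type cells (0.2%; 7 higher, 0.0608%, and 16 lower, 0.139%). Against ASC2-type cells C4b again had a lower change in members (-2.94, SE 0.30, adjusted p 2.05e-06), as had Timp1, an inhibitor of metalloproteases (-2.00, SE 0.30, adjusted p 0.00107). Timp1 was at 154 and 288 CPM at RT against 963 and 281 CPM in CL in members and at 17.0 and 33.2 CPM and 497 and 99.2 CPM in ASC2-type cells. Il33 (1.66, SE 0.28) and Wnt2, a Wnt ligand (2.01, SE 0.36), had higher changes in members. Against ASC1-type cells C4b (-1.66, SE 0.31) and Vegfd, a lymphangiogenic factor (-1.29, SE 0.25), had lower changes. Haemoglobin genes were called in these tests of both treatments, and 1 member of RT replicate 1 held 249 erythroid counts per 1000.

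In the Adrb1 line, with 1 library per genotype and temperature, cold was compared as a description, on the scale log2(CPM + 10). Of the 58 genes called higher after cold in C57 mice, 57 were higher in COLD in both WT and KO, against 44.1% of all genes. Of the 14 called lower, 8 were lower in both, against 35.8% of all genes, and 3 were higher in both. Gstp1 (1.18 in WT and 1.07 in KO) and Avpr1a (1.20 and 0.99) were among those higher in both. The interferon list was higher in both for 29 of 32 genes, with a median difference of 1.01 in WT and 1.79 in KO. Tnc was at 0.587 and 0 CPM at RT against 127 and 99.5 CPM in COLD in WT and KO, and Cpz at 149 and 155 CPM at RT against 47.2 and 47.1 CPM in COLD. Dlk1, lower after cold in C57 mice, was at 0.587 and 0 CPM at RT against 0.508 and 2.38 CPM in COLD here.

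Genotype was tested across both temperatures, with temperature as a term and 1 residual degree of freedom. Here edgeR called 72 of 10274 genes (0.701%), 38 higher (0.37%) and 34 lower (0.331%) in KO, but DESeq2 called 1. Of the 72 genes, 16 (22.2%, against 14.3% of all genes tested) had KO and WT libraries that did not overlap, 48 (66.7%, against 49.6%) had the same sign at both temperatures and 1 was past a log2 difference of 1 at both. Among the 72 were 16 genes of the interferon list, all higher in KO, and 9 mitochondrial genes, whose share the cell filter used. Summed over the interferon list, WT and KO held 1311 and 1294 CPM at RT against 3283 and 7259.8 CPM in COLD, so the genotypes stood apart in the cold pair only. Irf7 was at 21.1 and 14.9 CPM in WT and KO at RT and 87.3 and 191 CPM in COLD, and Cxcl10 at 4.70 and 4.97 CPM and 121 and 440.5 CPM. Eln, the elastin gene (-0.98, SE 0.19), Sfrp2 (-0.87, SE 0.16) and Fabp5, a fatty acid binding protein (-1.38, SE 0.29), were lower in KO, with KO and WT libraries that did not overlap. With 1 library a genotype at each temperature, genotype and pool cannot be told apart.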

How the data were processed

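The 10 Lin- single-cell libraries were analysed, and the Lin+ libraries were not used here. The deposited values are expected counts: the authors counted UMIs per gene with Cell Ranger 3.0.1 on mm10 and then subtracted cell-free RNA with SoupX, taking Fabp4 and Car3 as genes that stromal cells lack, which leaves values that are mostly not whole (0.438% to 2.78% of nonzero entries are within 1e-06 of a whole number).

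Members, types and gene lists were chosen with earlier results of these data known. Counts were summed per library and type, rounded to whole numbers and tested with edgeR's quasi-likelihood test (version 4.0.16, R 4.3.3, TMM scaling, filterByExpr), with p-values adjusted over all genes tested and the 27 genes used to choose cells then left out of every count. The C57 fit held 6 libraries and 3 groups. The test of the difference between types kept the library as a block, and the KO fit had genotype and temperature. DESeq2 1.42.0 was an alternative. Depth was 141652 to 2173800 counts per library of members. Fold changes of genes with no count in a group are given against a floor of 3 counts over the group, and counting intervals cover counting error only.

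Genes were named by rule: among called genes with libraries that do not overlap, the 10 largest changes in each direction, called members of the lists and 2 examples of each list (smallest p), the 10 smallest p where fewer than 10 genes were called, the rule genes, Adrb1 and the ASC1 markers, the 25 genes highest above both other types, and the 5 largest differences between types in each direction. For cold, C1qtnf3, Enpp6, Smpd3 and Tpm2 were named after their values were seen. A few genes that the rule names are not reported here. Single-cell shares were thinned to 1000 counts. Doublets were not removed; leaving out the 6% of cells with the highest Scrublet scores (scanpy 1.11.5) was an alternative. Replicate libraries of a group differed by more than sampling noise (chi-square per degree of freedom 4.17 to 13.3). Promoters came from RefSeq (GRCm38.p6) and were matched by symbol, 7447 of 9456 tested genes. Same-numbered C57 libraries come from 1 replicate experiment according to the study's methods, while the fits reported treat them as unpaired. A fit with the replicate number as a block was an alternative, given beside a result where it changed the call. The deviations of same-numbered libraries from their group means had correlations of 0.00163 (RT and COLD), -0.0242 (RT and CL) and 0.105 (COLD and CL). The edgeR fit of the C57 libraries was tested on simulated counts.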

Additional observations from a re-analysis of the deposited data

Results flagged for a closer look

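The genes below responded to a treatment differently in ASC3-type cells and in another stromal type, by the type by treatment term itself. They are the called members of the gene lists and the largest differences outside them. Values are differences in log2 fold change, ASC3-type minus the other type.

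After cold and against ASC1-type cells, higher values were those of Smoc2 (3.12), D630003M21Rik (2.63), Bmp4 (2.51), Hsd11b1 (2.50), Hmcn2 (2.36), Cxcl14 (2.18), Tsc22d3 (2.14), Msmo1 (1.65), Sc5d (1.54), Col6a6 (1.53), Ltbp4 (1.40), Thy1 (1.36), Nsdhl (1.35), H2-Q7 (1.35), Il34 (1.29), Hmgcs1 (1.25), Srebf2 (1.23), Ifit3 (1.22), Cd34 (1.19), Adamts5 (1.16), Fbln2 (1.15), Col4a4 (1.07), Ntf3 (0.99), Scd1 (0.93) and Bmp5 (0.89). They span matrix genes such as Smoc2 and Hmcn2, genes of glucocorticoid action such as Hsd11b1 and Tsc22d3, the BMP ligand Bmp4 and enzymes of sterol synthesis. Lower values were those of Smpdl3b (-4.51), Car3 (-4.36), Fabp5 (-2.70), Fabp4 (-2.65), Sfrp2 (-2.64), Des (-2.11), Cd36 (-2.07), Timp1 (-1.50), Il6 (-1.50), Ccl19 (-1.49), Vegfd (-1.33), Serpina3n (-1.28), Mt2 (-1.24), Cebpb (-1.23), Id2 (-1.21), C2 (-1.03) and Cd44 (-0.96). Fabp5 turned to 0.13 without RT replicate 1.

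After cold and against ASC2-type cells, higher values were those of Fgf1 (3.94), Postn (3.23), Rsad2 (2.99), Ecscr (2.52), Il33 (2.31), Wnt2 (1.91), Tgfb2 (1.63) and Fzd1 (1.36). Fgf1, a fibroblast growth factor, had 2 and 0 counts at RT and 5 and 17 in COLD in ASC3-type cells and did not pass the filter on low counts in the cold comparison of these cells alone. Lower values were those of M1ap (-5.07), C4b (-3.37), Rgs5 (-2.79), C2 (-2.27), Clu (-2.23), Fbln1 (-1.94), Sfrp2 (-1.85), Cfb (-1.52), Sfrp1 (-1.50), Prg4 (-1.50), Igfbp3 (-1.39), Chrdl1 (-1.35) and Vegfd (-1.13), with complement genes and secreted Wnt modulators among them. In members of the Adrb1 line Sfrp1, Sfrp2 and Igfbp3 were higher after cold in both WT and KO, while C4b and C2 were lower in both. Of the other complement genes named, Cfb was higher in both (1.68 in WT and 2.02 in KO). Clu was lower in WT (-0.40) and slightly higher in KO (0.10). The type by treatment term was not tested in that line.

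In CL and against ASC1-type cells, higher values were those of Ighm (2.53) and Scd1 (1.48) and lower ones those of Car3 (-5.30), Fabp4 (-3.29), C4b (-1.66) and Vegfd (-1.29). Car3 and Fabp4 are the adipocyte genes that the authors used to estimate cell-free RNA. In ASC1-type cells Car3 had fitted changes of 6.70 after cold and 6.32 in CL, against 2.47 and 1.35 in members. Cells with adipocyte genes were not left out of the ASC1-type cells. The part of differentiating adipocytes in these differences, after cold or in CL, was not tested. In CL and against ASC2-type cells, higher values were those of H19 (7.07), mt-Co3 (2.91), Ighm (2.23), Wnt2 (2.01), Cdh13 (1.73) and Il33 (1.66) and lower ones those of Slc36a2 (-7.42), Dlk1 (-3.26), C4b (-2.94), Agt (-2.15), Cxcl9 (-2.01), Timp1 (-2.00), H2-Q7 (-1.96), Bmper (-1.37) and Col5a3 (-1.18). Of these, mt-Co3 turned to -0.25 with DESeq2, -0.04 without RT replicate 1 and -4.45 without CL replicate 2, Cxcl9 to 0.95 without RT replicate 1 and H2-Q7 to 0.94 in thinned sums. H19 had no count at RT in ASC3-type cells and Slc36a2 none at RT in ASC2-type cells, so their fitted differences depend on the prior count. With 3 counts over the group in place of 0, the differences of pooled log2 ratios were 1.79 for H19 and -4.48 for Slc36a2. The mitochondrial share, to which mt-Co3 adds, was used to keep cells.

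The haemoglobin genes were called as well, and 1 member of RT replicate 1 held 249 erythroid counts per 1000. After cold the differences were Hbb-bs (-15.39), Hba-a1 (-9.22), Hbb-bt (-6.17) and Hba-a2 (-5.81) against ASC1-type cells and Hbb-bs (-11.94), Hba-a1 (-6.30), Hbb-bt (-5.13) and Hba-a2 (-3.50) against ASC2-type cells. In CL they were Hbb-bs (-8.37), Hbb-bt (-6.83) and Hba-a1 (-6.54) against ASC1-type cells and Hbb-bs (-4.50) against ASC2-type cells. Hbb-bs had no count in COLD in ASC3-type cells, and with 3 counts over the group in its place the cold differences of pooled log2 ratios were -11.36 and -8.13 against ASC1-type and ASC2-type cells. Without RT replicate 1 the sign turned for Hba-a2 (5.12 and 2.35 against ASC1-type and ASC2-type cells) and Hbb-bt (1.57 against ASC2-type cells) after cold and for Hbb-bs in CL (2.18 against ASC1-type cells), and without members holding immune or erythroid counts Hbb-bs in CL against ASC2-type cells was at 0.87.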

How the results depend on the processing

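DESeq2 called 34 genes after cold, 8 in CL, 2 between CL and COLD, 1 between KO and WT, 3 and 2 for the CL response against ASC1-type and ASC2-type cells and 11 for the cold response against ASC2-type cells. Without a filter on low counts the numbers were 285 after cold, 76 in CL, 162 between CL and COLD, 443 and 89 for the cold response against ASC1-type and ASC2-type cells and 55 and 65 for the CL response. Sums thinned to 1 total gave 15, 1 and 2 for these comparisons in C57 mice, 34 for KO, 51 and 8 for the cold response and 10 for the CL response against ASC2-type cells. These settings also tested other numbers of genes. In C57 mice 16377 were tested without the filter and 3191 in thinned sums, against 9456. For the responses against ASC1-type and ASC2-type cells the numbers were 19859 and 18919 without the filter and 3916 and 3868 in thinned sums, against 11565 and 11516. A fit of all 10 libraries with line terms called 904 genes after cold. It had no term for the kit, so its cold term also takes in the kit difference within the Adrb1 line. Other settings gave 10 genes in CL without the top Scrublet scores and 13 between CL and COLD with a rule sum of at least 5. Without members holding immune or erythroid counts, an alternative chosen after seeing the data, CL called 8 and the CL response against ASC2-type cells 15. Leaving out 1 library gave 19 to 186 genes after cold, 2 to 56 in CL, 0 to 19 between CL and COLD, 194 to 345 and 37 to 93 for the cold response against ASC1-type and ASC2-type cells and 18 to 69 and 10 to 71 for the CL response. For the cold response against ASC2-type cells the high value was without RT replicate 1. For the CL response against ASC1-type cells the numbers were 46 without RT replicate 1, 43 without RT replicate 2 and 69 without CL replicate 2, and against ASC2-type cells 58, 71 and, without CL replicate 1, 10. The cause of these shifts was not tested.

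The 208 called results of genes that the rule names were compared under each alternative that tested the gene and gave an adjusted p, 1930 values in all. These were 1400 with the same sign and call, 518 with the same sign and no call and 12 of the other sign. The latter were Ifit3b between KO and WT with DESeq2 (-1.54), and in CL against ASC2-type cells mt-Co3 with DESeq2 (-0.25), H2-Q7 in thinned sums (0.94) and Hbb-bs without the members holding immune or erythroid counts (0.87). The others arose with a library left out, which was RT replicate 1 in each case and, for mt-Co3, also CL replicate 2. The ranges over the libraries left out were -4.45 to 2.99 for mt-Co3 and -2.38 to 0.95 for Cxcl9 in CL against ASC2-type cells, -18.73 to 2.18 for Hbb-bs in CL against ASC1-type cells, -13.18 to 5.12 for Hba-a2 and -3.64 to 0.13 for Fabp5 after cold against ASC1-type cells, and -10.51 to 2.35 for Hba-a2 and -7.10 to 1.57 for Hbb-bt after cold against ASC2-type cells.

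The difference of group means in the share of ASC3-type cells kept its sign under every alternative tried, with values between -5.00 and -0.69 points after cold and between -6.02 and -0.24 points in CL. With a replicate block, 89 genes were called after cold, 4 in CL and 32 between CL and COLD. Named genes called with the block alone were Cd74 (adjusted p 0.00141) and H2-Aa (0.00111) after cold, Cd74 (0.0195) and Hp (given above) in CL and Zbtb16 (0.0238) between CL and COLD. Beside these and the block values given with the results, the block changed no call of a gene reported here. KO and WT could not be fitted with such a block, having 1 library each at a temperature. Genes under a few counts per library cannot be followed at the depth of CL replicate 1.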
